A study of Bos taurus with 8 samples.

Results

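The B cell and plasma cell genes described here are 9 genes chosen by symbol: CD79A, CD79B, MS4A1, CD22, BLK, BTK, BLNK, PAX5 and JCHAIN, which the array lists as IGJ. By symbol, 8 of the 9 genes had a probe and CD22 had none, out of 17019 named genes on the array. The 8 genes were read by 11 probes of 43653, since CD79A, MS4A1 and JCHAIN had 2 probes each. The blood came from 5 female Holstein Friesian cows that had received a probiotic for 60 days, in both groups. The CPE group was fresh whole blood held with cowpea leaf phenolic extract at 10 µg/ml, in an incubator at 37 °C and 5% CO2 for 30 min. The CONTROL group was the same kind of blood held without the extract. Each group was read on 4 single-colour Cy3 arrays from RNA pooled per group. The arrays within a group may therefore repeat one RNA pool, and p-values then measure the spread between arrays and not between cows. Red cells were lysed apart from white cells during RNA isolation. Each group also lay on a slide of its own, so slide and treatment cannot be told apart in any comparison below.

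B cells carry an antigen receptor made of membrane immunoglobulin and a signalling pair, CD79A and CD79B. When antigen binds, kinases phosphorylate paired tyrosines in the tails of this pair, BTK and the adaptor BLNK are recruited, and calcium and NF-kB signalling follow. PAX5 is the transcription factor that holds B cell identity and is shut off when a B cell becomes a plasma cell, the antibody-secreting stage. JCHAIN encodes the joining chain that links IgM and IgA into polymers, and is known for high expression in plasma cells.

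The probe sequences show which stretch of each receptor transcript was read. The second CD79A probe (A_73_P109866, NM_174266) is shown because it was the receptor probe that differed between the groups. Its capitals mark 2 tyrosine codons, each followed after 2 codons by a leucine or isoleucine codon, with 7 codons between the 2 parts. This is the codon pattern of an immunoreceptor tyrosine-based activation motif, the paired tyrosine site of receptor tails.
CD79A A_73_P109866: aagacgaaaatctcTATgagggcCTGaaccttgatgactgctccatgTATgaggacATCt
The CD79B probe (A_73_P066211, ENSBTAT00000061488) and the lit MS4A1 probe (A_73_115697, NM_001077854) are shown for contrast, because they read other kinds of coding stretch. Capitals mark codons with T in the middle, which encode hydrophobic residues.
CD79B A_73_P066211: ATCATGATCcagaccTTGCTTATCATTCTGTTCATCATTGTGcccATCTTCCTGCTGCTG
MS4A1 A_73_115697: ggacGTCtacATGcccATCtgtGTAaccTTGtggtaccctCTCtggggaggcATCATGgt
The paired tyrosine pattern was searched on the printed strand in all frames as a tyrosine codon, 2 codons of any kind and a leucine or isoleucine codon, found again with 6 to 8 codons between the 2 parts. It occurred in 43 probes, 0.0985% of all probes. Codons with T in the middle made up 17 of 20 in the CD79B probe, a count reached by 0.00536% of probes with an open frame. In the MS4A1 probe they made up 8 of 19, a count reached by 29.1% of such probes. The polyadenylation signal letters AATAAA, searched on the printed strand, lay in 2 of the 11 member probes, CD79A A_73_101543 and the BTK probe, against 9.35% of all probes. These matches describe the probes and say nothing of how the transcripts are controlled.

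Large areas of every array were dim, so a spot was called lit on an array when the spots around it were bright. The local value was the 90th percentile of raw signal over the 61 nearest spots, and a spot was lit when it lay within 1.5 log2 units of the array's own 90th percentile of such values. Spots lit on an array made up 43.1% to 50.2% on the CPE arrays and 31.9% to 40.7% on the CONTROL arrays, and 13080 of 43803 spots were lit on all 8. Spots well above background made up 37.8% to 49.9% on the CPE arrays and 26.4% to 37.1% on the CONTROL arrays. No spot was saturated. The number of arrays limits the precision of every value below.

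Of the 11 member probes, 7 probes of 6 genes were lit on all 8 arrays and well above background on all 8. These were both CD79A probes, CD79B, MS4A1 A_73_115697, BTK, PAX5 and JCHAIN A_73_113362. The B cell label therefore rests on measured signal of MS4A1, CD79A, CD79B and PAX5 on every array, with CD22 not measured. The other 4 probes, those of BLK and BLNK, the second MS4A1 probe and the second JCHAIN probe, were dim on some arrays and are described apart. Values given as intensity are processed signals of a spot. Levels, given as the mean ± SD of 4 arrays per group, are log2 processed signal minus the array's 75th percentile, taken over the spots lit on all 8 arrays. That percentile was 397 to 748 on the CPE arrays and 583 to 762 on the CONTROL arrays, with CPE array 3 the lowest of all. Levels of different probes are not set against each other. In whole blood, fewer cells of a type and less RNA per cell cannot be told apart.

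In the lit area, JCHAIN was higher in CPE blood by more than 2-fold, 1 of the 2 CD79A probes was slightly lower, and CD79B, MS4A1, BTK, PAX5 and the other CD79A probe did not pass the test. With limma and an adjusted p threshold of 0.05 over all 8085 lit probes tested, 1 of the 7 member probes was called higher and 1 lower. Among all lit probes tested 24.2% were called higher and 24.1% lower, 48.3% in all, so the count of 2 of 7 is not above the background. The median log2 change of the 7 probes was −0.05, against 0.03 for all lit probes. The groups did not overlap for 4 of the 7 probes, against 50.7% of all lit probes.

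**Figure D1:**
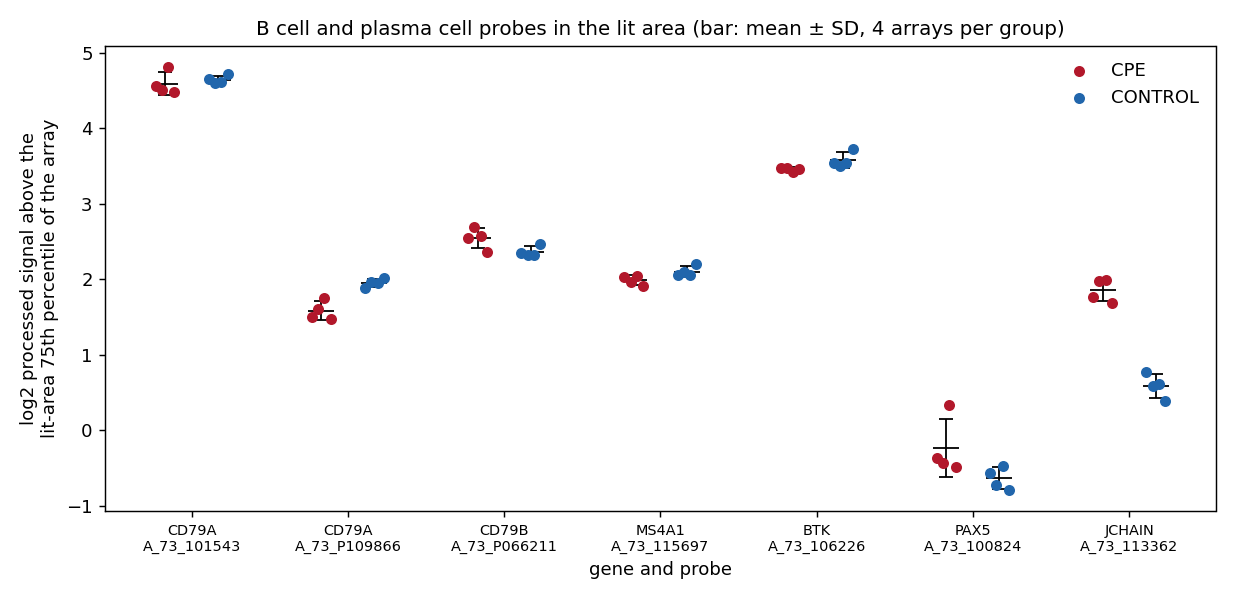
Level of each of the 7 lit member probes on each array, as log2 processed signal above the lit-area 75th percentile, with CPE in red and CONTROL in blue. Points are arrays and bars are mean ± SD of 4 arrays. JCHAIN lies at 1.69 to 2.00 on CPE arrays and at 0.39 to 0.78 on CONTROL arrays, and heights of different probes are not comparable.

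CD79A, the first partner of the receptor's signalling pair, was read by 2 lit probes. The probe over the paired tyrosine codons, A_73_P109866, had intensities of 2111, 2087, 1336 and 1929 on the CPE arrays, against 2824, 2827, 2789 and 2365 on the CONTROL arrays. All CPE arrays lay below all CONTROL arrays, with CPE array 3 lowest. Its level was 1.58 ± 0.13 on the CPE arrays, against 1.96 ± 0.05 on the CONTROL arrays. The log2 change was −0.37 (SE 0.09), a 1.30-fold lower signal with CPE, at limma adjusted p = 0.00767. Without scaling between arrays this call was lost, at a log2 change of −0.55 with limma adjusted p = 0.127.

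The other CD79A probe, A_73_101543, had intensities of 17685, 15660, 11157 and 15544 on the CPE arrays, against 19208, 17596, 17620 and 15344 on the CONTROL arrays. The groups overlapped in level. The log2 change was −0.05 (95% interval −0.26 to 0.16, limma adjusted p = 0.664). Both probes carry the same transcript accession. Taken within each array, the log2 difference of the tyrosine-codon probe over the other moved by −0.32 between CPE and CONTROL, with no overlap of the groups. An exact two-sided permutation test over arrays gave p = 0.0286, the lowest that 4 against 4 arrays allow. The adjusted value over 7 probe pairs was also 0.0286, and these pairs were chosen after seeing the data.

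CD79B, the second partner of the pair, had intensities of 4387, 4432, 2358 and 3573 on the CPE arrays, against 3886, 3645, 3589 and 3239 on the CONTROL arrays. The lowest and the highest of the 8 values were both CPE arrays. Its level was 2.55 ± 0.13 on the CPE arrays, against 2.37 ± 0.07 on the CONTROL arrays, a log2 change of 0.18 (95% interval −0.03 to 0.39, limma adjusted p = 0.138). The interval leaves room for no change and for a rise of up to 0.39, and without scaling between arrays the change was −0.002.

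MS4A1 encodes CD20, a membrane protein of mature B cells that plasma cells lack. Its lit probe A_73_115697 had intensities of 3068, 2686, 1644 and 2608 on the CPE arrays, against 3164, 3100, 3004 and 2685 on the CONTROL arrays. In level the groups just failed to overlap, with 2.05 on the highest CPE array and 2.05 on the lowest CONTROL array after rounding. The log2 change was −0.11 (95% interval −0.29 to 0.06, limma adjusted p = 0.254). Under local centring, which subtracts each array's median deviation around the spot, the change was −0.17 and passed the test with limma adjusted p = 0.00659.

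BTK, the kinase that carries the receptor signal to calcium release, had intensities of 8314, 7667, 4252 and 7610 on the CPE arrays, against 8899, 8244, 8342 and 7745 on the CONTROL arrays. Levels were 3.46 ± 0.03 on the CPE arrays, against 3.58 ± 0.10 on the CONTROL arrays, and the groups did not overlap. The log2 change was −0.12 (95% interval −0.30 to 0.06, limma adjusted p = 0.232), and under local centring it was 0.03. BTK is also expressed in myeloid cells, so its signal in whole blood is not that of B cells alone.

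PAX5 had intensities of 581, 510, 502 and 495 on the CPE arrays, against 516, 440, 518 and 337 on the CONTROL arrays. The groups overlapped in intensity. In level, CPE array 3 stood at 0.34, against −0.36 to −0.49 on the other CPE arrays and −0.79 to −0.47 on the CONTROL arrays. The log2 change was 0.40 (95% interval −0.02 to 0.82, limma adjusted p = 0.102), and without CPE array 3 it was 0.21.

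JCHAIN A_73_113362 (NM_175773), the plasma cell gene of the list, had intensities of 2553, 2711, 1584 and 2241 on the CPE arrays, against 1305, 1094, 1101 and 764 on the CONTROL arrays. Every CPE array exceeded every CONTROL array, CPE array 3 included, which had the lowest intensity of the 8 arrays at 5 of the 7 lit member probes. The level was 1.86 ± 0.15 on the CPE arrays, against 0.59 ± 0.16 on the CONTROL arrays. The log2 change of 1.27 (SE 0.11, 95% interval 1.01 to 1.53) is a 2.41-fold rise with CPE, at limma adjusted p = 5.84e-05. The rise passed the threshold under all 21 alternative settings, with log2 changes of 1.09 to 1.33 and adjusted p of 3.61e-07 to 0.00843. Larger rises were read at 262 of the 8085 lit probes, 3.24%, so the rise lay in the upper tail of lit probes without being among the few most extreme.

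**Figure D2:**
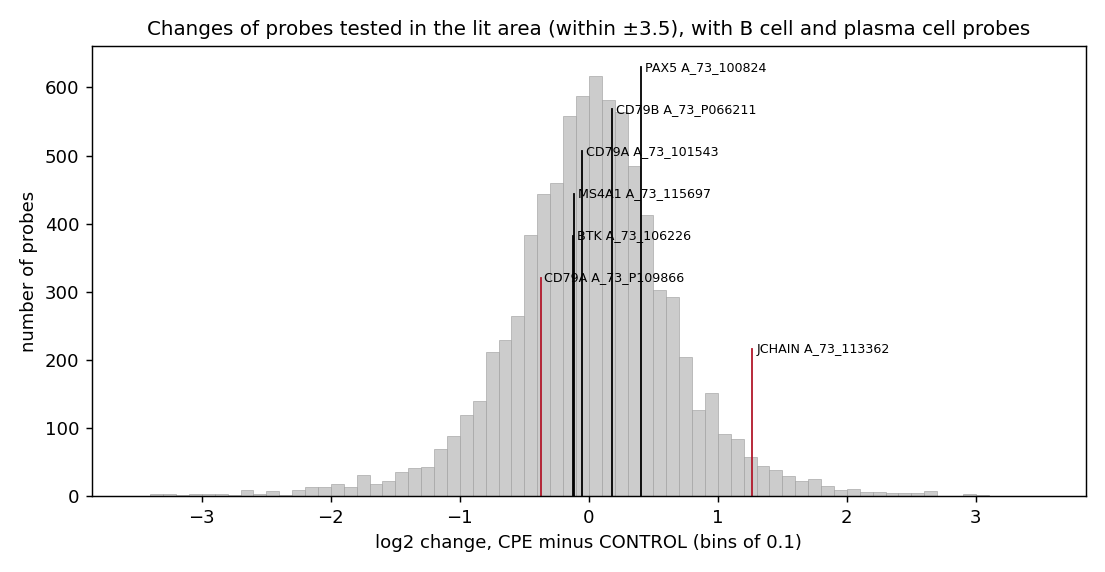
Number of lit probes (vertical axis) by log2 change, CPE minus CONTROL (horizontal axis, bins of 0.1), for 8063 of the 8085 lit probes tested, the other 22 lying beyond ±3.5 and not drawn. Lines mark the 7 lit member probes, red where past the threshold and black otherwise. JCHAIN stands at 1.27 in the upper tail, and the other 6 member probes lie between −0.37 and 0.40.

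The JCHAIN change was larger than that of each other lit member probe on the same arrays. The difference of log2 changes was 1.09 over CD79B, 1.32 and 1.64 over the CD79A probes A_73_101543 and A_73_P109866, 1.38 over MS4A1, 1.39 over BTK and 0.865 over PAX5. In each of these 6 pairs the groups did not overlap, and each exact two-sided permutation test gave p = 0.0286, the lowest possible, with an adjusted value of 0.0286 over 7 pairs. These comparisons were chosen after seeing the data and share the JCHAIN values.

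The second JCHAIN probe, A_73_P168392, was lit on 2 CPE arrays and 3 CONTROL arrays. Its intensities were 1089, 131, 1497 and 6.95 on the CPE arrays, against 861, 742, 822 and 9.15 on the CONTROL arrays. The low values of 131, 6.95 and 9.15 were those of the spots that were not lit, where the surroundings read 529, 89 and 103 against 1568 to 2193 at the lit spots. On the lit arrays alone, chosen after seeing the data, log2 signal over the lit-area 75th percentile was 0.54 and 1.92 on CPE arrays 1 and 3, against 0.18, 0.03 and 0.19 on CONTROL arrays 1, 2 and 3. The means were 1.23 in CPE and 0.13 in CONTROL, 2.14-fold higher in CPE, and both CPE values exceeded all CONTROL values. With 2 against 3 arrays the lowest exact two-sided permutation p is 0.2, which that test cannot bring past the threshold. Over all 8 arrays the log2 difference of this probe was −1.37, with no test because the spot was well above background on 3 of 4 arrays in each group. Leaving out single arrays moved this difference from −2.67 without CONTROL array 4 to 0.05 without CPE array 4, so its sign rests on 1 array.

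BLK, a Src-family kinase of B cells that phosphorylates the receptor tails, had intensities of 1289, 2516, 38.9 and 1800 on the CPE arrays, against 23.87, 10.15, 9.28 and 9.15 on the CONTROL arrays. Its spot was well above background on 3 CPE arrays and on 0 CONTROL arrays. The surroundings of the spot read 789, 1581, 87 and 1040 on the CPE arrays, against 162, 151, 153 and 140 on the CONTROL arrays, and the spot was lit on 2 CPE arrays and on 0 CONTROL arrays. The whole-array level was 1.79 in CPE and −3.11 in CONTROL. With the lowest signal well above background on each CONTROL array put in for its spot, the scaled spot signal was at least 7.86-fold higher in CPE. Without CPE array 3, whose spot was not well above background, it was at least 22.9-fold higher. That array held the lowest CPE signal and was left out after its value was seen, so leaving it out could only raise the bound. These figures bound the spot signal and not the transcript, because the spot was lit on 0 CONTROL arrays. The probe did not meet the filter for the test. CPE array 3 had the dimmest surroundings of the 8 arrays, and its signal, like those of the CONTROL arrays, was not well above background. The part of the surroundings in the difference was not tested. The authors' deposited table gives 4.394 for CPE and −0.5088 for CONTROL at this probe, as log2 group averages.

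BLNK, the adaptor that brings the receptor's kinases together with phospholipase C, was lit on no array. Its intensities were 1116, 11.9, 4208 and 7.21 on the CPE arrays, against 750, 601, 726 and 38.6 on the CONTROL arrays. CPE held the highest and the 2 lowest values of the 8, and the spot was well above background on 2 CPE and 3 CONTROL arrays. The surroundings read 593, 96, 226 and 90 on the CPE arrays, against 738, 646, 743 and 195 on the CONTROL arrays. The log2 difference was −2.19 and was not tested, and leaving out single arrays moved it from −0.94 without CPE array 4 to −3.65 without CPE array 3. Mean intensity ran the other way, at 1336 in CPE and 529 in CONTROL, since CPE array 3 held the highest value.

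The second MS4A1 probe, A_73_105053, had intensities of 1725, 3632, 2277 and 1588 on the CPE arrays, against 3240, 36.2, 52.3 and 12.5 on the CONTROL arrays. CONTROL array 1 lay inside the CPE range, and the other CONTROL arrays lay far below it. The surroundings read 705, 1230, 461 and 681 on the CPE arrays, against 766, 170, 166 and 155 on the CONTROL arrays, so the 3 low spots were those with dim surroundings. The spot was well above background on 4 CPE arrays and 2 CONTROL arrays, so it entered the whole-array test through CPE alone, and the fitted change rests partly on signals not above background. That change was 3.60 (SE 1.17, limma adjusted p = 0.0315), and it ranged from 2.26 with normexp to 5.13 without CONTROL array 1. The call was lost under 11 of 18 alternatives. The others include the filter for probes well above background on all 8 arrays, which left this probe untested, and the authors' deposited averages, which carry no test. The call was lost without CPE array 2 or 3 or CONTROL array 2, 3 or 4. The lit probe of the same transcript changed by −0.11 in the lit area and did not pass the test. The part of the dim surroundings in this call was not tested.

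**Figure D3:**
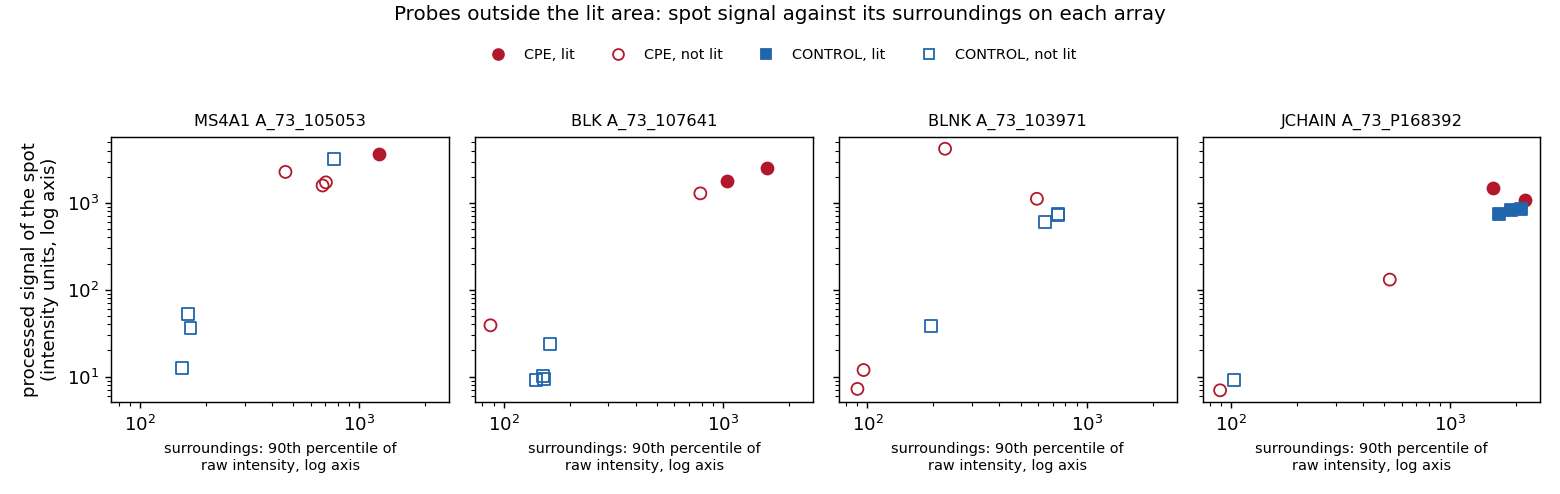
Processed signal of the spot (vertical, log axis) against the 90th percentile of raw intensity around it (horizontal, log axis) on each array, for the 4 member probes not lit on all 8 arrays. Red circles are CPE and blue squares CONTROL, filled where the spot was lit. At BLK the 4 CONTROL arrays sit below 25 intensity units where the surroundings read 140 to 162, and CPE array 3 sits near them at 38.9.

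Over the whole array, where the 75th percentile was taken over all spots, 8 member probes could be tested. They had a median log2 change of −1.06, against −0.81 for all 14926 probes tested, and the percentile itself was 135 to 280 on the CPE arrays and 53.4 to 150 on the CONTROL arrays. By limma, 1 member probe was called higher (MS4A1 A_73_105053) and 1 lower (CD79A A_73_P109866, 2.82-fold, adjusted p = 0.0309), against 17.4% higher and 21.6% lower of all probes, 38.9% in all. The probe called higher had entered the test through CPE alone, and with probes well above background on all 8 arrays the member calls were 0 higher by limma and 3 lower, with 4 of 7 at an unadjusted p under 0.05. In the main setting, 4 of the 8 probes had groups that did not overlap, against 46.1% of all. The count of calls was 0 when CPE array 2 or CONTROL array 2, 3 or 4 was left out, and 5 without CPE array 4. JCHAIN A_73_113362 had a whole-array change of 0.14 (limma adjusted p = 0.794), which is 0.96 above the median of all probes. Without scaling, where that median was 0.13, its change was 1.09 with limma adjusted p = 0.0155. The whole-array calls numbered 2591 higher and 3221 lower, but 3247 higher and 1146 lower without scaling and 3900 higher and 2361 lower when arrays were set to the median of bright probes. With probes well above background on all 8 arrays, 9660 in number, they were 207 higher and 3463 lower. In the lit area the split was 1959 higher and 1948 lower, and 428 higher and 1052 lower without scaling.

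**Figure D4:**
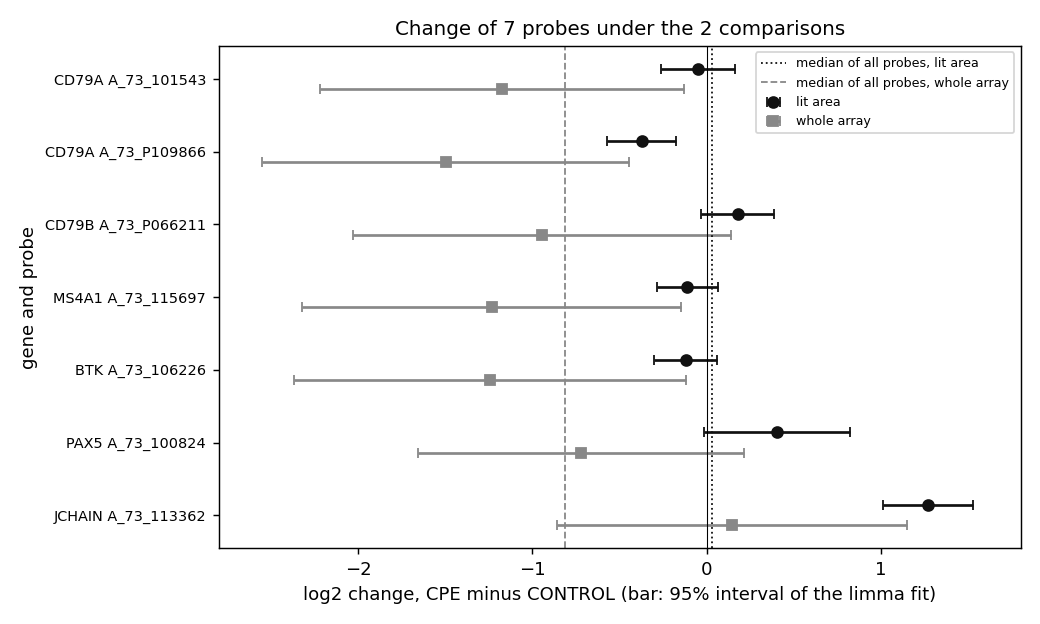
Log2 change, CPE minus CONTROL, of the 7 lit member probes (rows) in the lit area (black circles) and over the whole array (grey squares), with 95% intervals of the limma fit. The dotted and dashed lines are the medians of all probes tested, 0.03 and −0.81. Each probe lies lower over the whole array than in the lit area, and JCHAIN is the rightmost under both.

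Genes around the receptor were tested in the lit area and are described by counts. Of 30 receptor signalling genes, 13 had 19 probes tested, with a median log2 change of −0.17. Of these probes 2 were higher, 7 lower and 10 not called, against 24.2% higher and 24.1% lower of all lit probes, 48.3% in all. The number lower ran from 3 to 12 under the alternative settings. MALT1, the protease of the NF-kB branch, fell by 0.99 (SE 0.09, limma adjusted p = 6.08e-05), with levels of 0.08 ± 0.11 on the CPE arrays, against 1.07 ± 0.10 on the CONTROL arrays. A second MALT1 probe changed by −0.17 (limma adjusted p = 0.311). RASGRP3, a Ras activator downstream of diacylglycerol, fell by 1.00 on the log2 scale (limma adjusted p = 0.0085). FYN, a Src-family kinase also used by T cells, rose by 0.66 (limma adjusted p = 0.00418).

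Of 12 genes that restrain the receptor, 6 had 8 probes tested, with a median of 0.34. Of these probes 3 were higher, 1 lower and 4 not called, against 24.2% higher and 24.1% lower of all lit probes. CD5, which T cells express as well, rose by 1.36 on the log2 scale, with levels of 0.42 ± 0.16 on the CPE arrays, against −0.95 ± 0.45 on the CONTROL arrays (limma adjusted p = 0.00101). PAG1, an adaptor that holds the inhibitory kinase CSK at the membrane, rose by 1.17 (limma adjusted p = 0.00866). INPP5D, the lipid phosphatase SHIP1, fell by 0.755 (limma adjusted p = 0.0154), although its arrays overlapped between the groups.

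Of 20 B cell transcription factors, 9 had 12 probes tested, with a median of 0.15. Of these probes 5 were higher, 2 lower and 5 not called, against 24.2% higher and 24.1% lower of all lit probes. IRF4, a factor needed for plasma cell formation, rose by 0.81 at one probe (limma adjusted p = 0.00882) and changed by 0.004 at another (limma adjusted p = 0.99). IKZF1, the lymphoid factor Ikaros, rose by 0.735 (limma adjusted p = 0.0424), but its spot was well above background on 4 CPE and only 2 CONTROL arrays, so it entered the test through CPE alone, and the call held under 8 of 19 alternatives. It was lost without any one of CPE arrays 1, 2, 3 and 4 and CONTROL arrays 1 and 2. TCF3, the E protein that starts the B cell programme, fell by 0.943 (limma adjusted p = 0.00398). SPIB fell by 0.41 at one probe (limma adjusted p = 0.00552) and changed by 0.14 at the other (limma adjusted p = 0.553). The count of 5 higher was 3 without CPE array 1, 2 or 4 or CONTROL array 1, and 2 without CONTROL array 2.

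Of 20 further B cell surface genes, 9 had 11 probes tested, with a median of 0.11. Of these probes 2 were higher, 4 lower and 5 not called, against 24.2% higher and 24.1% lower of all lit probes. CD74, the invariant chain of class II antigen presentation, fell by 0.94 on the log2 scale (limma adjusted p = 6.08e-05), with levels of 4.12 ± 0.10 on the CPE arrays, against 5.06 ± 0.08 on the CONTROL arrays. CD37, a tetraspanin of B cells, fell at both of its probes, by 0.64 (limma adjusted p = 0.00636) and 0.58 (limma adjusted p = 0.0018). CD86, a costimulatory ligand, rose by 0.65 (limma adjusted p = 0.00118). CD180, a Toll-like receptor relative of B cells, was called at both probes in opposite directions, at 0.86 (limma adjusted p = 0.00955) and −0.60 (limma adjusted p = 0.0163).

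Beside JCHAIN, the lit probes of HSP90B1, SSR4 and XBP1 and 1 of 2 lit IRF4 probes were called higher in the plasma cell list. The lit probes of CD38 and PDIA4 and the other IRF4 probe were not called. Of 22 genes listed, 17 were on the array and 6 had 7 probes tested, of which 4 were higher, 0 lower by limma (0 also at an unadjusted p under 0.05) and 3 not called, with a median of 0.46, against 24.2% of all lit probes called higher. IRF4 accounts for 2 of these 7 probes. Both IRF4 probes and the lit XBP1 probe were also counted among the B cell transcription factors above, so the 2 lists are not separate. Over the whole array 16 probes of the list were tested, with a median of −0.20, against −0.81 for all probes tested. Of these, 3 were higher, 1 lower (CD38 A_73_P212762, log2 −1.62, limma adjusted p = 0.0376) and 12 not called. This CD38 probe had intensities of 162.5, 115.4, 81.42 and 3412 on CPE arrays 1, 2, 3 and 4. The CONTROL arrays read 147.8 to 172.6. The CPE mean levels, −0.976 over the whole array and −2.35 in the lit area, leave out CPE array 4. The call therefore rests on CPE arrays 1, 2 and 3. In the lit area the same probe changed by −0.254 (limma adjusted p = 0.11) and was not called. Among all probes tested over the whole array, 17.4% were higher and 21.6% lower. The 3 called higher were IGHG1 A_73_110919, XBP1 A_73_P046041 and SSR4 A_73_P332947. These XBP1 and SSR4 probes were well above background on 4 CPE and 0 CONTROL arrays, so they entered the test through CPE alone. In the lit area HSP90B1, a chaperone of the endoplasmic reticulum, rose by 0.80 (limma adjusted p = 0.00295). The IRF4 probe above is the other of the largest rises there. The lit probe of SSR4, a subunit of the translocon-associated complex, rose by 0.52 (limma adjusted p = 0.00186). The lit probe of XBP1, the factor of the secretory programme, rose by 0.46 (limma adjusted p = 0.00173). PDIA4, SSR4 and XBP1 were named after their values were seen. Without scaling between arrays 0 of the 4 lit probes called higher were called, and with normexp 1 was.

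Immunoglobulin itself was read only outside the lit area. The IGHG1 probe, of the IgG1 heavy chain, was lit on no array and had intensities of 388, 991, 660 and 373 on the CPE arrays, against 96.3, 75.9, 59.3 and 57.4 on the CONTROL arrays. All CPE arrays exceeded all CONTROL arrays, with a whole-array log2 change of 2.03 (SE 0.447, limma adjusted p = 0.00482). Among spots not lit, 21.1% to 35.5% were well above background on the CPE arrays and 11.8% to 21.9% on the CONTROL arrays. The part of the dim surroundings in the IGHG1 change was not tested. The 2 probes of IGLL1, a light chain relative, had whole-array changes of 0.20 (limma adjusted p = 0.771) and 1.46 (limma adjusted p = 0.104) and did not pass the test. MZB1, a chaperone of plasma cells and marginal zone B cells, had intensities of 99.5, 730, 497 and 131 on the CPE arrays, against 326, 252, 272 and 206 on the CONTROL arrays, a whole-array change of −0.935 (limma adjusted p = 0.186). SDC1, the surface marker CD138 of plasma cells, was well above background on 0 of 8 arrays at both of its probes. No PRDM1 probe was well above background on all arrays of a group, so none was tested. CD38, IGHG1, IGLL1, MZB1, PRDM1 and SDC1 were named after their values were seen.

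Some markers of other blood cells also differed between the groups in the lit area, and their part in the results above was not tested. Among all lit probes tested, 24.2% were called higher and 24.1% lower. Of 13 T cell probes, 8 were higher and 0 lower by limma (0 at an unadjusted p under 0.05), and their summed scaled signal was 95.05 to 108.5 on the CPE arrays and 71.5 to 77.59 on the CONTROL arrays. The CD5 probe, 1 of those higher, was also counted above among genes that restrain the receptor. Of 4 NK cell probes, 2 were higher and 1 lower, with sums of 34.14 to 38.98 in CPE and 17.2 to 20.03 in CONTROL. Of 5 monocyte probes, 0 were higher by limma (0 at an unadjusted p under 0.05) and 2 lower, with sums of 20.05 to 22.11 in CPE and 26.18 to 28.81 in CONTROL. Of 5 neutrophil probes, 1 was higher and 4 lower, with sums of 103.8 to 117.3 in CPE and overlapping sums of up to 110.5 in CONTROL. Of 3 platelet probes 1 was higher, and neither of the 2 red cell probes was called by limma or at an unadjusted p under 0.05. The 7 lit B cell and plasma cell probes summed to 49.07 to 57.54 in CPE and 50.9 to 55.71 in CONTROL, so their summed signal overlapped between the groups. Each sum is weighted to its brightest probes and does not measure the amount of a cell type. The brightest were CD79A A_73_101543 and BTK among the 7 probes, GNLY among the NK cell probes and S100A12 among the neutrophil probes. GNLY rose by 1.26 while NKG7 fell by 0.783. S100A12, the neutrophil probe called higher, rose by 0.248.

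**Figure D5:**
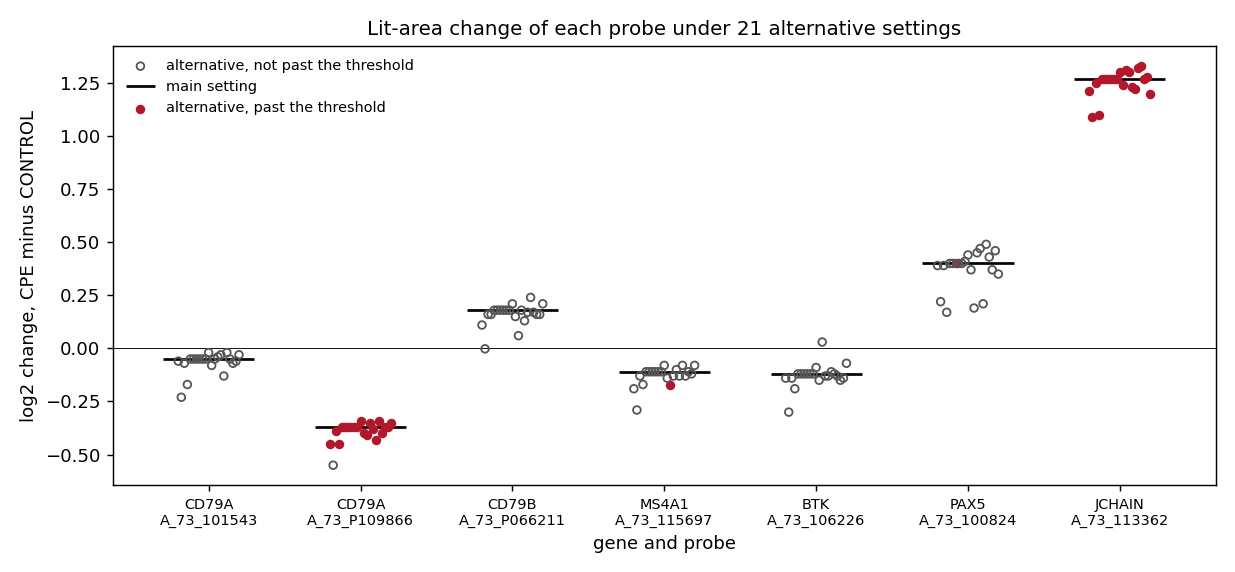
Lit-area log2 change, CPE minus CONTROL, of each lit member probe (horizontal axis) under 21 alternative settings. Black lines are the main setting, red points alternatives past the threshold and open points those not past it. JCHAIN stays between 1.09 and 1.33 and is past the threshold under all 21, and CD79A A_73_P109866 under 20.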

How the data were processed

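Single-colour Agilent arrays of bovine whole blood RNA were read, 4 per group. Per the file headers, Agilent Feature Extraction made the deposited spot intensity values, with background-subtracted processed signals, and its version was 10.10.1.1 per the submitters' processing notes. The authors' deposited table of group averages is on a log2 scale centred in a way not given in the sources used here; its CPE minus CONTROL differences had r = 0.9978 with the whole-array differences computed here, across 43653 probes, and its column medians were −0.5957 for CPE and 0.4577 for CONTROL.

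Control spots and outlier spots were left out, spots of a probe averaged and probes of a gene kept apart. Processed signal was taken as log2 minus each array's 75th percentile. A probe was tested when well above background on all arrays of a group. limma 3.58.1 in R 4.3.3 fitted all 8 arrays without covariates, with Benjamini-Hochberg adjustment over all probes tested, and was tested on simulated data. Scaling, background correction, filter, variance, threshold, lit-area and leave-one-out alternatives were run. Normexp (offset 50) used median spot and background signals in place of the planned mean spot signal, which was not used here. Gene names came from accessions for 26832 probes and from symbols for others, and 8778 probes had no name. Positions are not given, because the array and the reference table differ in build. All member probes are described, and up to 2 rises and 2 falls per list are named, apart from an item not reported here. The members and lists were chosen with earlier results of these data known.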

Additional observations from a re-analysis of the deposited data

Results flagged for a closer look

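Among 22 groups of 4 arrays examined for an array standing apart, 5 had one, where chance gives about 1 in 20. At the BLK probe CPE array 3 was lowest, at a whole-array level of −2.85 with the next CPE array at 2.75. At PAX5 CPE array 3 was highest, at a lit-area level of 0.34 with the next at −0.36. At MS4A1 A_73_105053 CONTROL array 1 was highest, at a whole-array level of 4.43 with the next CONTROL array at −1.22. At the BLNK probe CONTROL array 4 was lowest, at −0.47 with the next at 2.32. At JCHAIN A_73_P168392 CONTROL array 4 was lowest, at −2.54 with the next at 2.52. Apart from PAX5, these are spots outside the area lit on all 8 arrays.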

How the results depend on the processing

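The JCHAIN A_73_113362 rise in the lit area kept its direction and its call under all 21 alternatives, and the CD79A A_73_P109866 fall under all but no scaling. Lit-area member calls were 2, with 1 under no scaling and 2 to 2 when single arrays were left out. All lit-area calls, 3907, became 1480 under no scaling, 1778 with normexp, 2533 at an adjusted p under 0.01, and 3218 to 4463 when single arrays were left out. Whole-array calls, 5812, became 3203 with normexp, 3670 (207 higher, 3463 lower) for probes well above background on all 8 arrays, 2725 at an adjusted p under 0.01, and 3703 without CONTROL array 2 to 6746 without CPE array 4. Whole-array member calls, 2, became 1 each with quantile normalisation, no scaling, normexp, no filter and trend and robust variance, 0 at an adjusted p under 0.01 by limma (5 at an unadjusted p under 0.05), and 0 to 5 when single arrays were left out (2 to 5 at an unadjusted p under 0.05). Signs turned for CD79B in the lit area without scaling (−0.002), BTK in the lit area with local centring (0.03), PAX5 over the whole array without scaling (0.22) and with the bright-probe median (0.17), and JCHAIN A_73_113362 over the whole array without CPE array 4 (−0.05, in a range of −0.05 to 0.47 when single arrays were left out), and for JCHAIN A_73_P168392, untested, over the whole array without CPE array 4 (0.05 against −1.37). The cause of these moves was not tested. Lowest and highest counts of probes called higher were 0 and 5 for plasma cell genes and 0 and 5 for B cell transcription factors, and of those called lower 3 and 12 for receptor signalling genes.

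Replicate numbers were not taken as pairs: same-numbered arrays had correlations of −0.116, −0.165, 0.286 and 0.411 between their deviations from the group means over 7139 probes. With the replicate number as a block, calls were 7031 over the whole array and 3773 in the lit area, and member calls were 4 over the whole array and 3 in the lit area, PAX5 being added at 0.40 with limma adjusted p = 0.0458. Signal over background limits BLK, BLNK and the second MS4A1 and JCHAIN probes, which no alternative here brings into the area lit on all 8 arrays.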
